A study of Homo sapiens with 18 samples.

Results

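MDA-MB-231 cells, a human triple-negative breast cancer line, in which IMPDH2 had been knocked out and replaced by a nuclear form of the enzyme were compared with unedited cells of the same line by messenger RNA sequencing. The comparison was chosen by its 2 sets of columns in the series' count table, and it takes in 6 of the 18 libraries, 3 of the knockout cells labelled KO+Nuclear-IMPDH2 (here the nuclear line) and 3 labelled WT and Control (here unedited cells). Neither group received guanosine. The nuclear line shares the knockout label with 4 further groups of 3 libraries each, used here as reference levels. They include the knockout alone and the knockout grown with 400 µM guanosine. Another is the knockout with IMPDH2 added back without a named location (here the IMPDH2 add-back line). The last is the knockout with the form labelled Cyt-IMPDH2 (here the Cyt-IMPDH2 line). The labels do not say whether the knockout cells are 1 clone, which promoter drives the added enzyme, or whether replicate libraries stem from cultures grown apart, so each p-value measures the spread between these libraries, which may be technical. What all knockout-derived cells share, whether from loss of IMPDH2 or from their descent, cannot be told apart in this comparison.

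IMPDH2 and its paralog IMPDH1 oxidise inosine monophosphate to xanthosine monophosphate, the rate-limiting step of guanine nucleotide synthesis, and use NAD as the electron acceptor. The guanine nucleotides feed RNA and DNA synthesis, ribosome production and GTP-dependent signalling, and cells can also make them by salvage of guanosine. PARP1, named in the title of the study, is a nuclear enzyme that consumes NAD to build poly(ADP-ribose) at DNA breaks.

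The nuclear-line libraries held 53.6, 60.9 and 51.3 M estimated reads (M, 1e6) and the unedited libraries 56.3, 49.9 and 53.1 M, and all 18 libraries lay between 45.9 and 63.3 M. On the first principal component of all genes, which carried 42.6% of the variance, unedited libraries lay between -111 and -109.1 and the nuclear line between 18 and 19.5, inside the range of the other knockout-derived groups. Mitochondrial transcripts took 7.67% ± 0.13 (SD, n = 3) of reads in the nuclear line and 5.18% ± 0.03 (SD, n = 3) in unedited cells, and 7.41% to 7.82% in the other knockout-derived groups. The part of this shift in the results was not tested.

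IMPDH2 messenger RNA, as counted under its own entry, was close to the unedited level in the nuclear line. IMPDH2 (ENSG00000178035.13, GRCh38 chr3:49024325-49029408, minus strand) stood at 283, 305 and 304 CPM (counts scaled to library size with TMM factors) in the nuclear line and at 319, 318 and 319 CPM in unedited cells. The 3 nuclear-line libraries lay below the 3 unedited ones, a log2 fold change of -0.10 ± 0.03 (SE) with an adjusted p of 0.00557 in edgeR's quasi-likelihood test. That call was lost with library totals in place of TMM factors (-0.02, adjusted p = 0.479), without the filter on low counts (adjusted p = 0.062) and with an offset for transcript length (adjusted p = 0.354). The knockout alone held 41.6 CPM ± 0.566 (SD, n = 3), the IMPDH2 add-back line 532 ± 10.4 and the Cyt-IMPDH2 line 379 ± 13.9, so the nuclear line carried the least IMPDH2 message of the 3 lines with the enzyme put back. It was 7.15-fold above the knockout alone (adjusted p = 7.04e-20). The counts do not tell messages of the edited gene from those of the added enzyme.

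The forms of the message differed more than its total. The full-length coding transcript IMPDH2-201 was at 187, 207 and 199 TPM (length-normalised transcript abundance) in the nuclear line and at 170, 162 and 166 TPM in unedited cells, with no overlap. The 29 transcripts annotated as retaining an intron summed to 5.73 TPM ± 0.813 (SD, n = 3) in the nuclear line and to 10.8 ± 0.42 in unedited cells, and to 6.43 ± 0.631 in the knockout alone. A separate entry over the same locus, ENSG00000290315, whose reads the quantification could share with IMPDH2, was at 164, 147 and 145 CPM in the nuclear line against 80.9, 65.0 and 73.1 in unedited cells (log2 fold change 1.06, adjusted p = 3.36e-10). It was at 3.54, 3.34 and 3.2 CPM in the knockout alone and at 237, 227 and 216 in the IMPDH2 add-back line. The entries differed in direction. Whether the small fall of IMPDH2 came from how reads were divided between them was not tested.

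IMPDH1 and PARP1 were both higher in the nuclear line. IMPDH1 was at 54.1, 54.2 and 53.4 CPM against 44.9, 44.2 and 42.0 CPM in unedited cells, with no overlap between the groups (log2 fold change 0.30, adjusted p = 1.7e-07). PARP1 (ENSG00000143799.14, GRCh38 chr1:226360691-226408079, minus strand) was at 386, 369 and 378 CPM against 251, 252 and 250 CPM. All nuclear-line libraries lay above all unedited ones, by 1.5-fold (log2 fold change 0.59 ± 0.026 SE, adjusted p = 7.22e-13). Its neighbours on chromosome 1 were mostly higher too. In the window chr1:213983181-226408079 that holds PARP1, described with the chromosome windows, 36 of 51 coding genes were called higher (median 0.23). PARP1 lies at the end of that window. In the next, chr1:226631690-235161457, 41 of 52 were called higher (median 0.39). PARP1 was nearly as high in the IMPDH2 add-back line (352 CPM ± 2.53, SD, n = 3) and the Cyt-IMPDH2 line (364 ± 10.9), higher under guanosine (406 ± 0.822), and lower in the knockout alone (271 ± 9.16). Against the mean of the 2 other add-back lines its log2 fold change in the nuclear line was 0.08 (adjusted p = 0.0232), a call that was lost without a filter (adjusted p = 0.0979), with the compared groups alone (0.058), with the length offset (0.493), without nuclear-line replicate 1 (0.145) and without nuclear-line replicate 3 (0.0848).

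**Figure D1:**
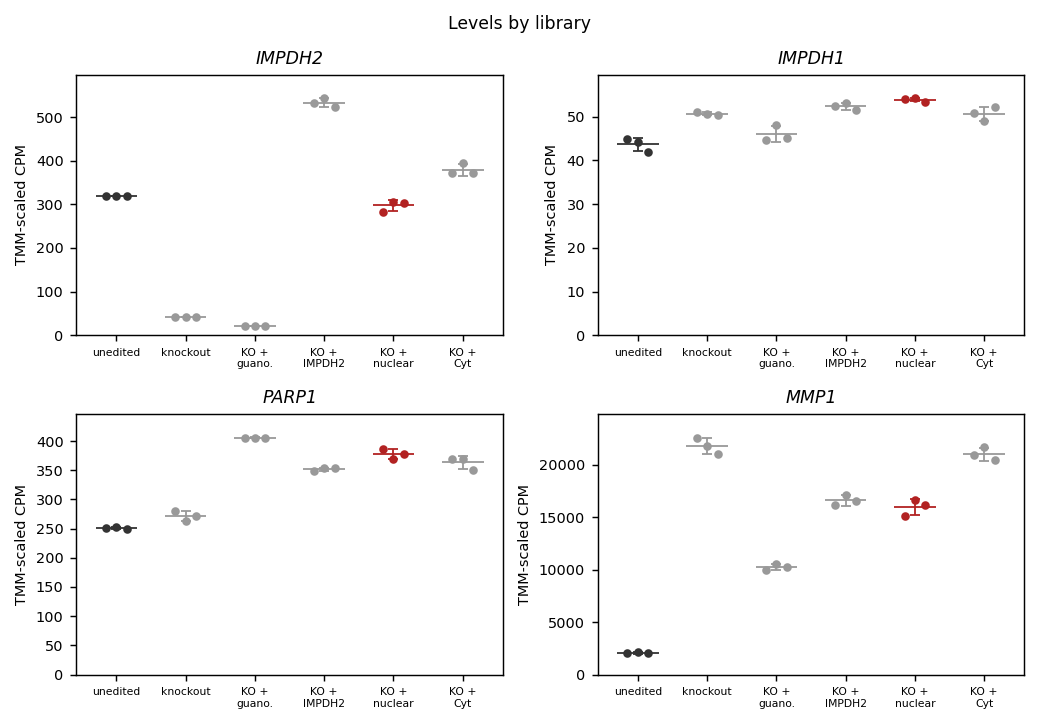
TMM-scaled CPM of IMPDH2, IMPDH1, PARP1 and MMP1 in each of the 18 libraries, as points by group, with the group mean as a horizontal line and 1 SD as the error bar (n = 3). IMPDH2 in the nuclear line (red) sits just below the unedited level, PARP1 and IMPDH1 sit above it, and MMP1 is far above it in every knockout-derived group.

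Expression differed between the nuclear line and unedited cells over most of the genes tested. Of 19252 genes, 12523 (65.0%) passed an adjusted p of 0.05, 6063 of them higher in the nuclear line (31.5%) and 6460 lower (33.6%). At least 2-fold differences were called for 2911 genes (15.1%), 1351 higher (7.02%) and 1560 lower (8.1%), while the median log2 fold change over all genes was 0.01 with quartiles of -0.39 and 0.36. With library totals the median moved to 0.08 and the counts to 7279 higher and 5515 lower. The libraries of the groups did not overlap at 68.9% of genes. These shares are the background for counts of members against unedited cells. For counts against the knockout alone the shares are 26.1% higher and 26.9% lower. Against the mean of the IMPDH2 add-back and Cyt-IMPDH2 lines they are 8.86% and 7.16%.

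The largest falls were losses from a clear level to none. PHGDH, the first enzyme of serine synthesis (GRCh38 chr1:119648411-119744226, plus strand), was at 62.8, 65.5 and 66.7 CPM in unedited cells and had no read in any nuclear-line library, at least 3578-fold lower when 3 counts are set as the floor of the group (adjusted p = 4.26e-12). It had no read in the knockout alone, with or without guanosine, or in the Cyt-IMPDH2 line, and 4 reads in all in the IMPDH2 add-back line. COL4A5, a collagen chain of basement membranes, was at 20.8, 21.1 and 20.3 CPM in unedited cells and had 1 read in the nuclear line, a ratio of 3426 (95% interval 615 to 135374, counting error only). SERPINB2, an inhibitor of plasminogen activators, went from 46, 51.7 and 48.3 CPM in unedited cells to 0.0932, 0.0328 and 0.0394 CPM (log2 fold change -9.74, adjusted p = 1.09e-15).

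Several of the other large falls were in cancer-testis genes, which are normally silent outside the testis and tumours. MAGEC1 was at 107, 110 and 112 CPM in unedited cells and at 0.354, 0.328 and 0.276 in the nuclear line (log2 fold change -8.41). PAGE5 and MAGEA12 had no read in the nuclear line and were at least 902-fold and at least 948-fold lower, and the tubulin gene TUBA3C at least 969-fold lower. MAGEA3 had 2 reads against 5211 (ratio 2864, 95% interval 792 to 23656). MAGEA3, MAGEA6, MAGEA12 and TUBA3C have near-identical copies between which reads could be split, so their single values are uncertain. MAGE family genes and cancer-testis genes were put in the same list, and not every member, such as the MAGED genes, is of the class described above. Of its 14 tested genes (19 listed), 10 were lower and 4 were higher. The median log2 fold change was -6.71 when 4 members with no read were put at their bounds. After subtraction of the median of neighbouring genes, described with the chromosome windows, it was -5.79. MAGEB1, MAGED1, MAGED2 and MAGED4, named here after their values were seen, were the 4 higher members. The other genes at the top of the falls were MAGEA6, ARHGEF10, a guanine nucleotide exchange factor, MXRA8, a cell-adhesion protein, and ZNF300, a zinc-finger gene, each with a log2 fold change between -9.4 and -8.32.

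The largest rises were likewise gains from near silence. EPB41L3, a cytoskeletal adaptor at the membrane, was at 114, 112 and 116 CPM in the nuclear line and at 0.733, 0.721 and 0.54 CPM in unedited cells (log2 fold change 7.42). PGM5, a phosphoglucomutase-like protein of cell junctions, was at 39.4, 35.1 and 37.1 CPM against 0.207, 0.212 and 0.18 (log2 fold change 7.53, adjusted p = 2.01e-19). VWA5A was at 46, 44.5 and 47.1 CPM against 0.376, 0.721 and 0.92 (log2 fold change 6.10). These genes were chosen for large folds without overlap, so the gap between the groups was set by the choice. ITM2A, a small membrane protein, had 1735 reads in the nuclear line and 2 in unedited cells (ratio 789, 95% interval 218 to 6522), NALF2 was at 2.29, 2.61 and 2.17 CPM and had no read in unedited cells (at least 119-fold higher), and ZNF729 had 490 and 3 (ratio 149, 95% interval 50.5 to 723). CYP7B1, an oxysterol hydroxylase, RPS6KA6, a ribosomal S6 kinase, ZDHHC15, a palmitoyltransferase, AMOT, a scaffold of tight junctions that binds YAP, and the near-identical pair MAGED4 and MAGED4B completed the leading rises, with log2 fold changes from 5.59 to 6.69. The other knockout-derived groups also carried these genes well above the unedited level. EPB41L3, for one, was at 80.9 CPM ± 2.2 (SD, n = 3) in the knockout alone, 102 ± 0.579 in the IMPDH2 add-back line and 87.6 ± 1.21 in the Cyt-IMPDH2 line.

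**Figure D2:**
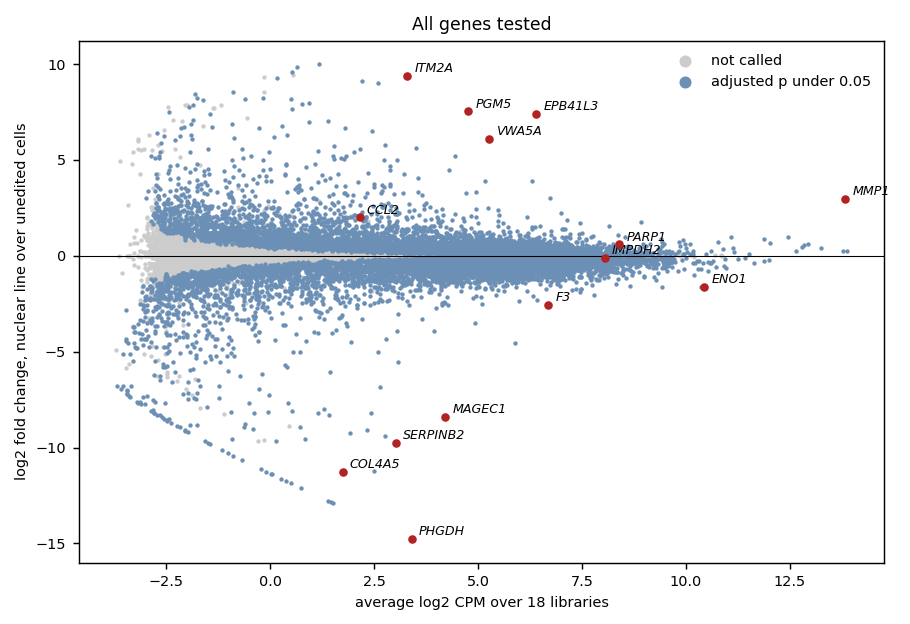
Log2 fold change of the nuclear line over unedited cells (vertical axis) against average log2 CPM over 18 libraries (horizontal axis) for the 19252 genes tested, blue where the adjusted p was under 0.05, with 14 genes marked in red. MMP1 lies far to the right at a log2 fold change of 2.96, PHGDH at the bottom with no read in the nuclear line, and IMPDH2 close to 0; the lower edge of diagonal points is made of genes with few or no reads in the nuclear line, whose fitted values are no measured folds.

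Lower genes were gathered in stretches of the genome. Coding genes with a position in GENCODE 29 were taken in order along each chromosome in 265 windows of at least 50 genes. The window medians of the log2 fold change against unedited cells ranged from -1.21 to 0.55, with 26 windows at or below -0.5 and 1 at or above 0.5. The highest, chr19:18571730-21556270, had 47 of 51 genes called higher. Other raised windows were chrX:49175264-57489196 (0.41), chr5:92151-31532196 (0.36) and chr14:18967434-23556192 (0.26). The lowest lay on the short arm of chromosome 1, at chr1:11106535-19260128 (GRCh38), with a median of -1.21 and 48 of 51 genes called lower, and its neighbours chr1:3778558-11099881 and chr1:944204-3736201 had medians of -1.1 and -1.0. Chromosome 18 had the lowest median of the chromosomes, -0.74 over 199 genes. Against the knockout alone the same windows spanned -0.39 to 0.18, and chromosomes 1 and 18 had medians of 0.02 and 0.04. Against the mean of the IMPDH2 add-back and Cyt-IMPDH2 lines the windows spanned -0.23 to 0.15. Some stretches were shifted in both. The window chr5:141150022-147387852 had the lowest median against the knockout alone, -0.39, and -0.17 against those lines. For chr19:49487554-52139922 these medians were -0.25 and -0.15, and for chr17:142789-4187310 they were 0.15 and 0.15. The windows chr4:102630770-120922870 and chr4:121035613-145180161 had medians of -0.19 and -0.22 against the knockout alone, and -0.21 and -0.23 against those lines. Chromosome 13 had medians of 0.15 and 0.11. These comparisons share their nuclear-line libraries with the one against unedited cells. Several genes described below lie in the low stretches, so list medians are also given, where they moved by at least 0.1 or by over 1.5 times, after the window's median was subtracted from each member. Values of single genes are given without this subtraction, and the chromosome is named for only some of them. The fall or rise of a single gene may thus be shared with its neighbours.

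Genes of mitosis were lower in the nuclear line than in unedited cells. Of 30 listed genes of G2 and mitosis 28 fell, none rose, and NUSAP1 (log2 fold change -0.13) and HMMR (0.06) did not pass; 33.6% of all genes fell. The median was -0.57, and -0.42 with window medians subtracted. KIF20A, a kinesin of the cleavage furrow, was at 72.0, 69.7 and 68.4 CPM in the nuclear line against 160, 161 and 154 in unedited cells (log2 fold change -1.18, adjusted p = 2.79e-15). NDC80, the kinetochore protein that grips microtubules, was at 51.4, 52.2 and 51.1 CPM against 111, 116 and 111 (-1.12, adjusted p = 5.71e-15). The spindle checkpoint kinase TTK was at 57.8, 56.0 and 57.3 CPM against 113, 116 and 112 (-1.0), and the centromere motor CENPE at 70.2, 70.0 and 68.3 against 133, 139 and 135 (-0.97). In none of the 4 did a nuclear-line library reach an unedited one, which their choice by smallest adjusted p made likely. At the small end were ECT2, CENPF and CDK1, with falls of 0.13, 0.12 and 0.18 on the log2 scale.

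These genes were lower still in the knockout alone. KIF20A was at 30.0 CPM there, TTK at 30.6 and CENPE at 41.9, and in the nuclear line all 30 members were higher than in the knockout, where 26.1% of all genes were higher, with a median log2 fold change of 0.98. Against the mean of the IMPDH2 add-back and Cyt-IMPDH2 lines 14 members were higher and none lower, with a median of 0.09, where 8.86% of all genes were higher. The median member thus lay 0.54 to 0.56 below the unedited mean in the 3 nuclear-line libraries on the log2 scale of CPM + 0.5, against 1.52 to 1.58 below in the knockout alone, which is shown in the plot of list levels.

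Many mitotic promoters hold the cell cycle homology region (CHR), the letters TTTGAA or, on the other strand, TTCAAA, which the DREAM and B-MYB complexes are known to bind. In the 250 bases before the RefSeq start (GRCh38.p14), 14 of the 25 listed genes with a promoter sequence held it (56.0%), against 1120 of 12441 tested genes (9.0%). A match is a description of the letters and not a measured site. The list was written from background knowledge of mitotic genes, so these shares are no result of the comparison. The 160 bases before the start of the 3 falling genes with a match and the smallest adjusted p are shown because they carry this shared feature, 5′ to 3′ on the gene's strand with the CHR in capitals. They lie at chr1:43358821-43358980 (CDC20, plus strand), chr15:90994536-90994695 (PRC1, minus strand) and chr16:23678729-23678888 (PLK1, plus strand), and 1 of 2 matches of CDC20 lies in the printed bases.
CDC20: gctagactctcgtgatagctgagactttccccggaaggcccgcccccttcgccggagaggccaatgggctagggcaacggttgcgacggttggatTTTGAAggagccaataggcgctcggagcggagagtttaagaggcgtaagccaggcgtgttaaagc
PRC1: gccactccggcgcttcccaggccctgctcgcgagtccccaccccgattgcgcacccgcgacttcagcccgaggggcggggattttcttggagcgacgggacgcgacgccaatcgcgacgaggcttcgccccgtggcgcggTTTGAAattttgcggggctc
PLK1: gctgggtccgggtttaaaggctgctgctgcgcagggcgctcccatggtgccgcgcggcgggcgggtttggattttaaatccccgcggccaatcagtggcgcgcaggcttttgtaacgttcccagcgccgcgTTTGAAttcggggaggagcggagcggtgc
CDC20, the activator of the anaphase-promoting complex, PRC1, which bundles the central spindle, and the kinase PLK1 fell by 0.85, 0.93 and 0.72 on the log2 scale.

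Genes of DNA replication did not fall with them. Of 33 replication genes 16 rose, 7 fell and 10 did not pass, with a median log2 fold change of 0.07. POLE2, a subunit of the leading-strand polymerase, was at 50.6, 50.2 and 51.4 CPM against 34.3, 33.3 and 33.8 (log2 fold change 0.59, adjusted p = 7.73e-11). POLA1, the catalytic subunit that starts each strand, was at 51.9, 52.0 and 50 CPM against 37.0, 38.5 and 39.2 (0.42), and the helicase subunit MCM2 at 147, 144 and 148 against 116, 112 and 112 (0.37). The largest falls were in MCM4 (-0.60), ORC1 (-0.54) and RPA2 (-0.50). All 33 genes were higher in the nuclear line than in the knockout alone, with a median of 0.46, where 26.1% of all genes were higher. Among the cyclins, kinases and inhibitors of G1 and S, 9 rose and 11 fell of 23. The cyclin-dependent kinase inhibitors CDKN2D (16.6, 15.1 and 15.2 CPM against 40.4, 38.1 and 38.1) and CDKN2C (17.9, 17.0 and 16.1 against 37.7, 37.3 and 35.9) both fell, by 1.31 and 1.12 on the log2 scale, as did cyclin genes CCNA2 (-0.74) and CCND3 (-0.64), while CCNE1 (0.99), CDK4 (0.73) and MYC (0.44) rose.

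DNA repair genes changed in both directions and by less than 2-fold. In homologous recombination and the Fanconi pathway 13 of 25 rose and 5 fell (median 0.14). The nuclease EXO1 was at 74.6, 77.2 and 74.8 CPM against 50.8, 50.6 and 52.3 (log2 fold change 0.56), and XRCC2, a recombination protein, at 33.4, 34.3 and 33.7 against 22.7, 24.7 and 22.1 (0.55). BRCA2 (0.48) and BRCA1 (0.16) rose, while RAD50, FANCD2, RBBP8, RAD54L and FANCI, named after their values were seen, fell, RAD50 by 0.96. In base excision repair 11 of 19 rose and 6 fell (median 0.12), led by uracil glycosylase UNG at 153, 151 and 155 CPM against 107, 104 and 105 (0.54) and by APEX1, the endonuclease for abasic sites, at 242, 243 and 243 against 185, 180 and 181 (0.42). LIG3, the ligase that acts with XRCC1, was called higher (0.35), a call lost with the length offset (log2 fold change 1.32, adjusted p = 0.0878), and XRCC1 fell by 0.17.

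Among 22 genes of damage checkpoints and end joining 9 rose and 5 fell (median 0.07). TIMELESS, a protector of replication forks, was at 110, 111 and 111 CPM against 70.9, 71.1 and 70.0 (log2 fold change 0.65), and the checkpoint kinase CHEK2 at 19.3, 18.3 and 18.8 against 12, 12.8 and 10.5 (0.67). PRKDC, ATRIP, XRCC4, CLSPN and LIG4 were the 5 that fell, PRKDC, the catalytic subunit of DNA-dependent protein kinase, by 0.85. Of 23 genes of the arrest and apoptosis response to DNA damage 8 rose and 10 fell (median -0.01, and 0.01 after subtraction of window medians): the apoptosis gene PMAIP1 was at 55.0, 51.7 and 55.1 CPM against 113, 116 and 125 (-1.13), GADD45A fell by 0.89 and CDKN1A by 0.50, while BTG2 (1.54) and SPATA18 (1.22) rose.

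Of 24 genes of PARP enzymes and ADP-ribosylation, PARP1, PARP2, PARP9, PARG and ZC3HAV1 rose (named after their values were seen), 11 fell and 8 did not pass, with a median of -0.04 that became 0.01 after subtraction of window medians. PARP2, the second break-activated enzyme, rose by 0.37 on the log2 scale and PARG, which degrades the polymer, by 0.21. HPF1, the partner that directs PARP1 to serine, fell by 0.17. PARP12, an interferon-inducible member, was at 14.8, 14.7 and 16.2 CPM against 32.9, 33.6 and 35.4 in unedited cells (-1.16, adjusted p = 2.62e-13), and the hydrolase ADPRS at 32.3, 32.9 and 31.3 against 49.6, 48.5 and 49.0 (-0.61). Set against the other add-back lines, 8 members were higher and none lower, the largest being PARP16 (0.35), PARP9 (0.22) and PARP12 (0.20). Of all genes 8.86% were higher and 7.16% lower there. The count of 8 was not repeated under the alternatives, and the call of PARP1 in it was lost under several of them.

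NAD genes divided. NMNAT1, the nuclear NAD synthase, was at 4.4, 4.33 and 4.93 CPM in the nuclear line and 15.2, 14.8 and 14.8 in unedited cells (log2 fold change -1.71, adjusted p = 7.98e-12), and NADK, which makes NADP, at 40.1, 38.3 and 39.6 against 78.9, 78.4 and 78.3 (-1.0). NNMT, which draws off nicotinamide, fell by 2.61. NAMPT, the rate-limiting enzyme of NAD salvage, fell by 0.23, while NMNAT3, the mitochondrial synthase, rose by 1.98 and SIRT1 by 0.23. In all 7 rose and 8 fell of 18 tested, with a median of -0.10 and of 0.01 after subtraction of window medians; NMNAT1 and NADK are on chromosome 1, and in the knockout alone they stood at 4.46 and 34.4 CPM.

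Purine synthesis genes were mostly higher. Of 17 genes of purine synthesis and its guanine branch 10 rose, 5 fell, among them AK4, PRPS1, NME1 and IMPDH2, and GMPS and PAICS did not pass; the median was 0.15 (0.09 after subtraction of window medians), against 31.5% of all genes higher and a median of 0.01. PFAS, which makes formylglycinamidine ribonucleotide, was at 128, 134 and 135 CPM in the nuclear line against 87.7, 87.8 and 86.3 in unedited cells (log2 fold change 0.60, adjusted p = 5.83e-13). The trifunctional enzyme GART was at 180, 178 and 185 against 147, 143 and 144 (0.32), and PPAT, the committed step, at 57.2, 56.9 and 57.3 against 48.2, 46.1 and 49.5 (0.25). PFAS stood at 131 CPM in the knockout alone, 122 in the IMPDH2 add-back line and 131 in the Cyt-IMPDH2 line, all near the nuclear line. GMPS, the step after IMPDH, had a log2 fold change of 0.05 that did not pass.

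Salvage genes rose and fell in equal number, 5 each of 14, with a median of 0.02 (-0.03 after subtraction of window medians). PNP, the phosphorylase that splits guanosine and inosine, was at 161, 166 and 167 CPM against 116, 114 and 113 (log2 fold change 0.53), and ADA at 4.94, 4.53 and 4.35 against 2.33, 1.91 and 2.0 (1.15). HPRT1, which salvages guanine and hypoxanthine, was at 61.7, 63.5 and 66.7 CPM against 100, 95.6 and 94.4 (-0.60). NT5E, the surface enzyme that makes adenosine, was at 629, 590 and 626 against 1116, 1149 and 1181 (-0.90), and the nucleoside transporter SLC29A1 fell by 0.32.

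Of 15 genes of serine synthesis and folate metabolism 3 rose, MTHFD1 and MTHFD2L among them, and 9 fell, PHGDH among them, with a median of -0.46 that became -0.05 after subtraction of window medians. SHMT2, the mitochondrial serine hydroxymethyltransferase, was at 139, 129 and 131 CPM against 203, 200 and 211 (log2 fold change -0.62, adjusted p = 4.37e-13), and PSAT1, the step after PHGDH, fell by 0.46. TYMS, thymidylate synthase, was at 136, 129 and 131 CPM against 207, 200 and 200 (-0.62). Of 17 pyrimidine and deoxynucleotide genes CAD, CTPS2 and DUT rose, CAD, the first enzyme of the pathway, by 0.60, and 6 fell, led by CMPK1 at 143, 140 and 141 CPM against 223, 240 and 241 (-0.73). The ribonucleotide reductase subunit RRM1 fell by 0.26, and RRM2, at 0.01, did not pass. The list's median was 0.01, and -0.01 after subtraction of window medians.

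Interferon-stimulated genes were higher in the nuclear line. Of 30 listed genes 24 rose, IRF1 (-0.80) and IFIT5 (-0.43) fell and 4 did not pass, against 31.5% of all genes that rose. The median was 0.59, and 0.60 after subtraction of window medians. IFIT1, which binds foreign RNA ends, was at 126, 98.4 and 110 CPM in the nuclear line and at 27.4, 27.8 and 28.1 in unedited cells, 2.0 on the log2 scale (adjusted p = 3.75e-14). OASL was at 52.9, 43.7 and 48.2 CPM against 12.6, 10.4 and 12.4 (2.03, adjusted p = 1.82e-14), IFIT2 at 214, 186 and 207 against 74.4, 72.3 and 83.5 (1.40), and OAS2 at 39.8, 38.6 and 42.1 against 20.4, 18.9 and 21.3 (0.99). No nuclear-line library overlapped an unedited one at these 4 genes, which were picked for the smallest adjusted p in the list. Further large rises were those of USP18 (2.29), a brake on the interferon receptor, OAS1 (1.97), MX1 (1.68) and MX2 (1.51), while ISG15 rose by 0.36.

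How the nuclear line stood against the other knockout-derived groups differed by gene and by group. IFIT2 averaged 202 CPM ± 14.6 (SD, n = 3) in the nuclear line, 112 CPM in the knockout alone, 65.1 under guanosine, 210 in the IMPDH2 add-back line and 130 in the Cyt-IMPDH2 line. Against the knockout alone 10 of the 30 were higher and 13 lower (26.9% of all genes were lower), with a median of -0.02. Against the mean of the IMPDH2 add-back and Cyt-IMPDH2 lines 15 were higher, and IRF9 and BST2 were lower, with a median of 0.13, where 8.86% of all genes were higher and 7.16% lower. The largest of those differences were MX2 (1.00), OAS1 (0.94, adjusted p = 2.39e-07), MX1 (0.43) and OAS3 (0.34). By library, the median member was 0.53 to 0.59 above the unedited mean in the nuclear line, 0.51 to 0.64 in the IMPDH2 add-back line, 0.23 to 0.35 in the Cyt-IMPDH2 line and 0.81 to 0.89 in the knockout alone. The nuclear line and the IMPDH2 add-back line overlapped.

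The interferon-stimulated response element (ISRE), searched as GAAA, any 2 bases and GAAA again or, on the other strand, TTTC, any 2 bases and TTTC, is the site of the ISGF3 complex. It occurred in the 250 bases before the RefSeq start of 14 of 22 listed genes with a promoter sequence (63.6%). Among tested genes it did so for 319 of 12441 (2.56%). Overlapping matches were each counted. The list was written from background knowledge of this response, so these shares are no result of the comparison. Here too a match is a description of the letters and not a measured site. The 160 bases before the start of the 3 rising genes with a match and the smallest adjusted p are shown for this shared feature, 5′ to 3′ on the gene's strand with each match in capitals (GRCh38.p14, RefSeq): IFIT1 at chr10:89392463-89392622 (plus strand), IFIT3 at chr10:89327837-89327996 (plus strand) and BST2 at chr19:17405631-17405790 (minus strand), where the 2 matches overlap.
IFIT1: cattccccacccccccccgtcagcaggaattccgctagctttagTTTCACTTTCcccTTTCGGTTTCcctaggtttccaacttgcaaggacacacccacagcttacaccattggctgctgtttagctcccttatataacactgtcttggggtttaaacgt
IFIT3: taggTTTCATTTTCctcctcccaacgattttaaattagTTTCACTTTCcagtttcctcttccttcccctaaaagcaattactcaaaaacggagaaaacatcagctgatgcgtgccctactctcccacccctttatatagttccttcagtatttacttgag
BST2: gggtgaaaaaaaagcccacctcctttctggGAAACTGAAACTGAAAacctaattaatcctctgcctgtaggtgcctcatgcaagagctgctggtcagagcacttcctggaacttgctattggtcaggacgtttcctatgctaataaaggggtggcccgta
IFIT3 and BST2, the latter a tether of budding virus, rose by log2 fold changes of 0.96 and 0.95.

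Sensors of nucleic acids moved both ways, with 7 of 15 higher, 6 lower and a median of -0.03 that became 0.29 after subtraction of window medians. RIGI, the cytoplasmic RNA sensor, was at 249, 207 and 230 CPM against 95.3, 99.9 and 110 (log2 fold change 1.17). The DNA sensors IFI16 (222, 210 and 221 CPM against 117, 118 and 119) and AIM2 (5.46, 4.87 and 6.27 against 1.33, 1.7 and 1.58) rose by 0.88 and 1.85. CGAS fell by 0.31, STING1 rose by 0.31 and TLR3 fell by 1.32. Of 16 genes of antigen presentation 7 rose and 8 fell (median -0.03, and -0.16 after subtraction of window medians), HLA-F (2.24) and HLA-B (0.98) rising furthest and PSMB10 falling by 1.11.

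NF-kB targets and inflammatory mediators were mostly lower, with 14 of 24 falling and a median of -0.34. IL11, a fibrogenic cytokine, was at 5.41, 3.61 and 4.61 CPM in the nuclear line and at 71.7, 61.7 and 68.6 in unedited cells (log2 fold change -3.90, adjusted p = 2.29e-15). The neutrophil attractant CXCL8 was at 13.3, 13.7 and 14.4 CPM against 26.1, 26.5 and 27.8 (-0.95), TNFAIP2 at 27.0, 24.3 and 26.6 against 67.7, 65.5 and 64.0 (-1.34), and NFKB1 at 37.9, 35.7 and 36.2 against 49.7, 49.0 and 50.3 (-0.44). CCL2, CCL20, TNFAIP3, CSF3 and BIRC3, the 5 members that rose, were named after their values were seen. Against the knockout alone 18 were lower, CCL2 and TNFAIP2 were higher and 4 did not pass, with a median of -0.65. Of all genes 26.9% were lower there. By library the median member was 0.25 to 0.33 below the unedited mean in the nuclear line, 0.32 to 0.38 above it in the knockout alone, and from 0.04 below to 0.08 above it in the IMPDH2 add-back line. The Cyt-IMPDH2 line, at 0.29 to 0.44 below, overlapped the nuclear line, and the knockout under guanosine was 0.19 to 0.25 below.

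Lipid synthesis genes were lower. Of 24 sterol genes 21 fell, SQLE (0.56) and TM7SF2 (0.76) rose and PMVK did not pass, with a median of -0.70 (-0.57 after subtraction of window medians), and of 15 fatty acid genes 14 fell, ACACB rose (1.18), and the median was -0.61. INSIG1, the feedback regulator that holds SREBP in the endoplasmic reticulum, was at 67.8, 64.5 and 75.1 CPM against 232, 229 and 231 in unedited cells (log2 fold change -1.74, adjusted p = 1.09e-15). Farnesyl diphosphate synthase FDPS was at 103, 102 and 109 against 203, 200 and 204 (-0.95). The stearoyl-CoA desaturase SCD was at 522, 462 and 559 against 1567, 1559 and 1649 (-1.63). In the knockout alone INSIG1 was at 70.5 CPM and SCD at 497, differences from the nuclear line that did not pass (adjusted p = 0.635 and 0.461), while FDPS was at 86.1 CPM and was higher in the nuclear line (log2 fold change 0.28, adjusted p = 1.1e-07). Of the 24 sterol genes 15 were higher in the nuclear line than in the knockout alone and 4 lower (median 0.12). Of all genes 26.1% were higher and 26.9% lower there. FASN, fatty acid synthase, fell by 1.02.

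Glycolysis and hypoxia genes were lower, 23 of 29, with SLC2A3, HK2, PFKL, PFKM and ALDOC higher and a median of -0.40. The glycolytic enzyme ENO1 was at 1049, 1024 and 1075 CPM in the nuclear line against 3180, 3196 and 3279 in unedited cells (log2 fold change -1.62, adjusted p = 2.01e-19). The lactate exporter SLC16A3 was at 114, 115 and 123 CPM against 408, 383 and 392 (-1.75), PFKFB4 at 11.6, 11 and 12.1 against 38.4, 39.8 and 38.2 (-1.75), and the glucose transporter SLC2A1 at 188, 180 and 190 against 447, 435 and 444 (-1.25). ENO1 and SLC2A1 lie on chromosome 1, and the list's median after subtraction of window medians was -0.46. LDHA fell by 0.79, GAPDH by 0.38, VEGFA by 1.74 and CA9, a hypoxia-induced carbonic anhydrase, by 4.25.

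NRF2 targets and pentose phosphate genes divided, 11 lower and 7 higher of 20 (median -0.20, and -0.07 after subtraction of window medians). The pentose phosphate enzymes PGD (114, 107 and 108 against 246, 237 and 248) and TKT (245, 244 and 248 against 467, 456 and 466) fell by 1.15 and 0.92 on the log2 scale. The ferritin genes FTL (0.99) and FTH1 (0.74) rose. In comparison with the other add-back lines 11 of the 20 were lower and none higher, where 7.16% of all genes were lower, with HMOX1 (-0.57), FTL (-0.47) and FTH1 (-0.33) furthest.

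Genes of the ATF4 response and aminoacyl-tRNA synthetases showed 21 of 27 lower, IARS1, WARS1 and CHAC1 higher and a median of -0.44. ATF4 itself, the transcription factor of amino acid stress, was at 208, 209 and 212 CPM against 399, 376 and 397 (log2 fold change -0.90, adjusted p = 3.41e-15). The tyrosine and asparagine tRNA synthetases YARS1 (110, 106 and 111 CPM against 238, 241 and 245) and NARS1 (108, 108 and 107 against 243, 243 and 251) fell by 1.15 and 1.19, on chromosomes 1 and 18, and asparagine synthetase ASNS fell by 0.86. Relative to the other add-back lines 11 of these were also lower and none higher, among them ATF3 (-0.49), ATF5 (-0.35) and SLC3A2 (-0.35). Of all genes 7.16% were lower there. SLC7A11 is in both lists. Of 19 genes of the unfolded protein response 11 fell and 3 rose (median -0.21), with XBP1 at 49.3, 48.1 and 51.5 CPM against 85.9, 79.2 and 82.8 (-0.74) and the chaperone HSPA5, at -0.05, not past the test.

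Mesenchymal and matrix genes were lower in 20 of 24 tested, with SERPINE2 and ZEB1 higher and a median of -0.84 (-0.74 after subtraction of window medians). Thrombospondin THBS1 was at 448, 471 and 442 CPM against 1096, 1105 and 1099 in unedited cells (log2 fold change -1.28, adjusted p = 5.62e-15), the crosslinking enzyme TGM2 at 196, 186 and 197 against 362, 362 and 368 (-0.91), and the collagen COL5A1 at 22.9, 24.7 and 25 against 78.2, 83.6 and 82.6 (-1.75). FN1 fell by 1.19, SNAI2 by 1.78 and VIM, the intermediate filament that marks this cell line, by 0.23. Of 22 integrins and laminins 15 fell and 4 rose (median -0.45): the laminin chain LAMA4 was at 0.988, 0.558 and 0.966 CPM against 18.7, 19.5 and 17.9 (-4.49), and ITGB5 at 84.1, 78.4 and 84.6 against 184, 179 and 193 (-1.17), while ITGB4 rose by 1.28.

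The most abundant matrix protease rose while most of its list fell. MMP1, interstitial collagenase (ENSG00000196611.6, GRCh38 chr11:102789920-102798160, minus strand), was at 15107, 16645 and 16100 CPM in the nuclear line and at 2012, 2128 and 2005 in unedited cells. It was 7.79-fold higher (log2 fold change 2.96 ± 0.04 SE, adjusted p = 2.11e-19) and carried the summed level of the 20 tested proteases and inhibitors from between 4780 and 4884 CPM in unedited cells to between 17263 and 18775. MMP3, stromelysin, rose with it, from 6.37, 6.1 and 6.04 CPM to 26.6, 37.8 and 32.8 (2.39). MMP1 stood at 21780 CPM in the knockout alone, 16589 in the IMPDH2 add-back line and 20999 in the Cyt-IMPDH2 line, and at 10253 under guanosine. TIMP2 rose by 0.09, while 13 of the 20 fell (median -0.46, and -0.61 after subtraction of window medians), among them the gelatinase MMP2 (-4.79), the membrane protease MMP14 (-0.49), TIMP3 (-0.77) and the urokinase PLAU at 378, 358 and 377 CPM against 478, 478 and 488 (-0.38). MMP1, MMP3 and TIMP2 were named after their values were seen.

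Genes of the TGF-beta and BMP, YAP and TEAD, and EGFR lists were also mostly lower. In the TGF-beta and BMP list 15 of 20 fell and ID3 and BMP6 rose (median -0.62): the receptor TGFBR2 was at 210, 212 and 219 CPM against 504, 506 and 515 (log2 fold change -1.25, adjusted p = 2.84e-16), the transducer SMAD3 at 129, 135 and 128 against 230, 232 and 233 (-0.83), and the ligand BMP4 at 47.5, 44.4 and 47.0 against 101, 94.0 and 104 (-1.11). Of 18 YAP and TEAD targets 10 fell and FJX1, LATS2 and PTPN14 rose (median -0.11). Tissue factor F3 fell furthest, from 308, 308 and 309 CPM to 51.9, 52.3 and 51.4 (-2.57, adjusted p = 9.89e-19). CCN1 was at 579, 549 and 566 against 857, 810 and 826 (-0.56), and YAP1 itself fell by 0.07. Of 17 genes of the EGFR family and its feedback 12 fell and ERBB2, ETV4, ERBB3 and SPRY2 rose (median -0.20), with the ligand AREG at 7.55, 8.85 and 7.61 CPM against 21.5, 23.2 and 22.4 (-1.48) and the feedback inhibitor SPRY4 at 95.4, 103 and 100 against 230, 236 and 226 (-1.21).

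All 13 mitochondrially encoded messages rose, with a median of 0.60. MT-ND2 was at 6150, 6273 and 6081 CPM in the nuclear line against 3138, 3127 and 3147 in unedited cells (log2 fold change 0.98, adjusted p = 1.19e-13), and MT-CYB at 3993, 4168 and 4414 against 2269, 2370 and 2312 (0.86). The nuclear-encoded subunits of the same complexes did not rise with them: 5 of 33 rose and 17 fell (median -0.13, and -0.05 after subtraction of window medians, with 6 of the 33 in windows at or below -0.5), SDHB going to 31.0, 29.4 and 31.4 CPM from 71.9, 69.7 and 73.6 (-1.23) and UQCRC1 to 64.8, 66.5 and 70.1 from 139, 131 and 138 (-1.02). Of 26 genes of ribosome biogenesis 13 rose and 8 fell (median 0.13), led by RRP12 at 114, 116 and 118 CPM against 85.7, 82.5 and 84.9 (0.46) and by the polymerase I subunit POLR1A at 194, 206 and 193 against 156, 154 and 147 (0.38).

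Markers were checked against the label of the cells. The 10 markers of the line all passed the filter on low counts, summing to between 8901 and 9086 CPM in the nuclear line and between 10079 and 10346 in unedited cells, with 8 lower and 2, MSN among them, higher. Of 20 luminal and epithelial markers 13 passed the filter on low counts, and ESR1, PGR, FOXA1, KRT23, CDH1, ESRP1 and GRHL2 did not; 9 of the 13 fell and CD24 rose, with KRT8 at 127, 120 and 133 CPM against 332, 326 and 339 (log2 fold change -1.39) and KRT7 at 0.951, 0.771 and 1.2 against 46.7, 40.8 and 48.6 (-5.55). Of 16 markers of blood, endothelial and fibroblast cells 11 passed, with CD3E, HBB, CDH5 and DCN among those below the filter; the 11 summed to between 39.3 and 41.4 CPM in the nuclear line and between 48.4 and 51.2 in unedited cells, 5 fell and KDR rose, with a median of -0.75 that became -0.28 after subtraction of window medians.

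**Figure D3:**
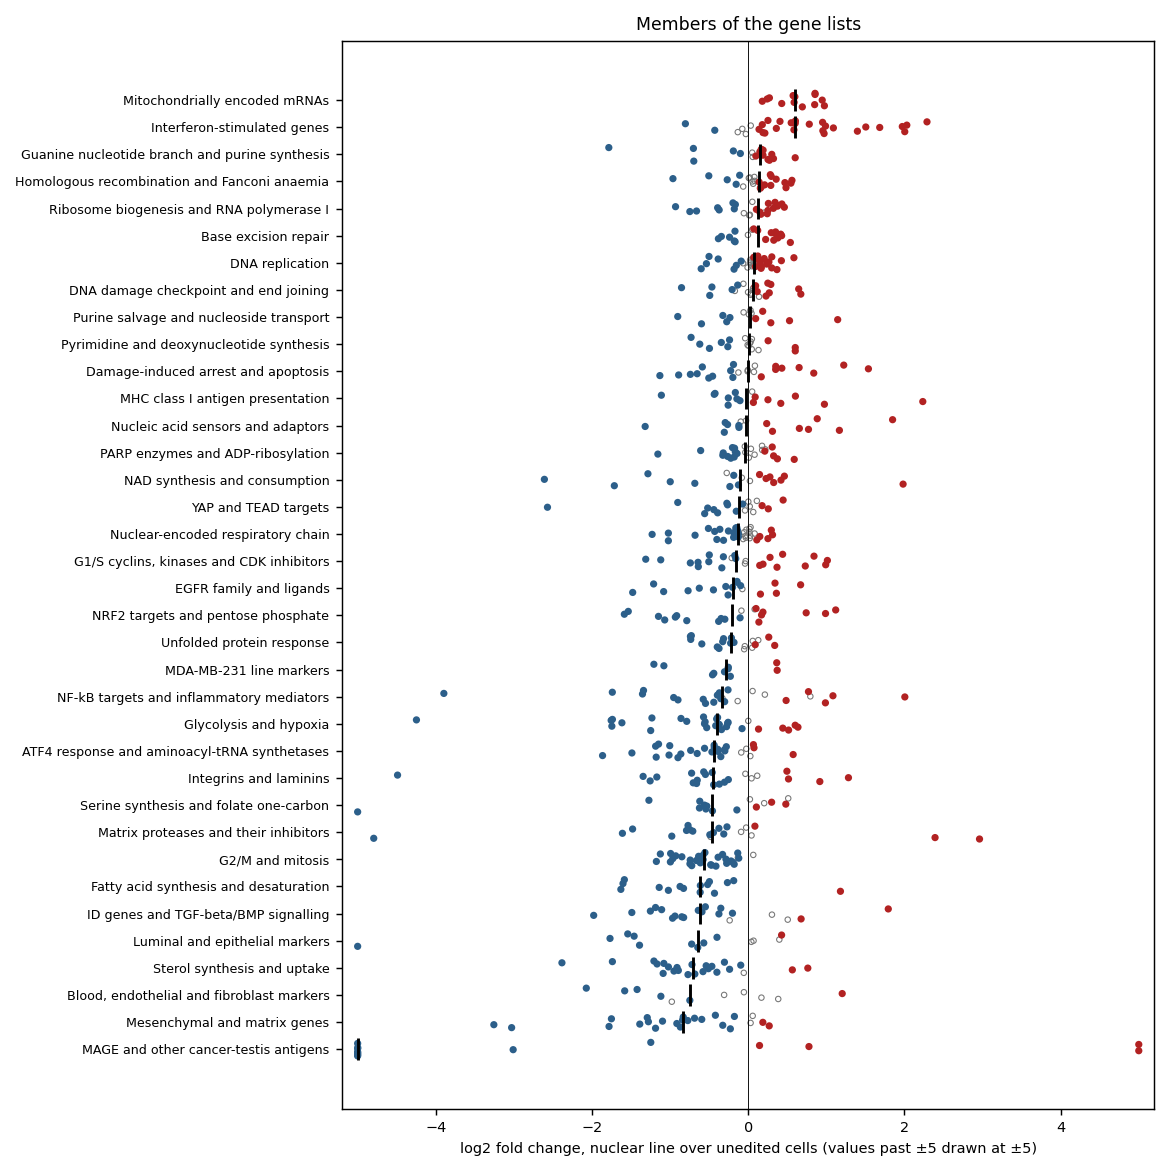
Log2 fold change of the nuclear line over unedited cells (horizontal axis) for each tested member of the 36 gene lists (rows), filled red or blue where the adjusted p was under 0.05 and open where it was not, with a black bar at each list's median; values past 5 in size are drawn at 5. Lists of mitosis, lipid synthesis and matrix lie to the left and those of interferon and of the mitochondrial genome to the right, while the repair and replication lists straddle 0.

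**Figure D4:**
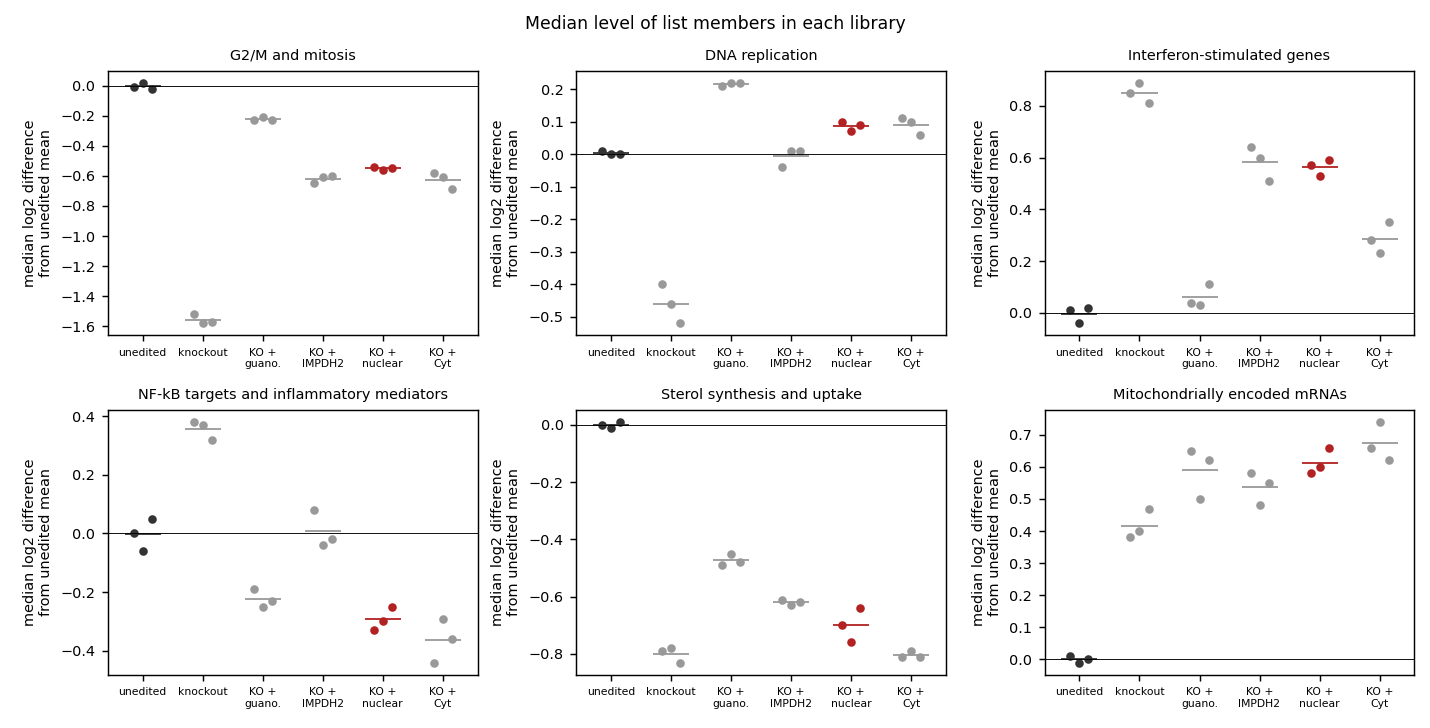
Median over list members of log2(CPM + 0.5) minus the member's mean in unedited cells (vertical axis), 1 point per library and a bar at the group mean, for 6 lists and 6 groups. In the mitotic panel the nuclear line (red) lies 0.54 to 0.56 below unedited cells and the knockout alone 1.52 to 1.58 below, and in the NF-kB panel the nuclear line lies below unedited cells and the knockout alone above them.

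The nuclear line differed at fewer genes from the 2 other lines with IMPDH2 put back. Against the mean of the IMPDH2 add-back and Cyt-IMPDH2 lines 3085 genes (16.0%) were called, 1706 higher (8.86%) and 1379 lower (7.16%). At least 2-fold differences numbered 148 (0.769%), 68 higher (0.353%) and 80 lower (0.416%). With the transcript-length offset the counts were 490 higher and 429 lower, and without the filter on low counts 176 higher and 165 lower by at least 2-fold. Without nuclear-line replicate 1 the count of higher genes was 1085 and without replicate 3 it was 1063. The comparison shares its nuclear-line libraries with the one against unedited cells.

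CCL2, the monocyte chemoattractant (ENSG00000108691.10, GRCh38 chr17:34255218-34257203, plus strand), had the largest difference between the nuclear line and the other add-back lines. It was at 19.9, 14.7 and 17.5 CPM in the nuclear line, and at 3.87, 4.26 and 4.84 in unedited cells (log2 fold change 2.01, adjusted p = 6.62e-11). It averaged 2.08 CPM ± 0.159 (SD, n = 3) in the knockout alone, 1.17 ± 0.152 in the IMPDH2 add-back line and 0.173 ± 0.0521 in the Cyt-IMPDH2 line, so that the nuclear line stood above every other group, by 37.9-fold over the mean of the add-back lines on the log scale (log2 fold change 5.24 ± 0.121 SE, adjusted p = 9.85e-15). HLA-DOA, a chain of the class II modulator HLA-DO, was likewise highest in the nuclear line, at 4.73, 4.33 and 4.83 CPM against 0.301, 0.127 and 0.3 in unedited cells (4.23) and averages of 2.29 and 1.29 in the other add-back lines. Its log2 fold change of 1.43 over those lines was no longer called with the length offset (adjusted p = 0.209).

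TIE1 and SPOCK1 were nearer their unedited level in the nuclear line than in any other knockout-derived group. TIE1, an endothelial receptor kinase, was at 10.0, 10.9 and 10.7 CPM in the nuclear line and at 11, 11.3 and 10.5 in unedited cells, which overlapped (log2 fold change -0.06, adjusted p = 0.491). It averaged 2.05 CPM in the IMPDH2 add-back line, 2.44 in the Cyt-IMPDH2 line and 4.87 in the knockout alone, and the difference from the add-back lines was 2.24 on the log2 scale (adjusted p = 7.06e-14). SPOCK1, a matrix proteoglycan, was at 2.65, 2.84 and 2.66 CPM, between unedited cells at 6.22, 6.93 and 7.36 and averages of 0.802 and 0.543 in the other add-back lines (2.04 against these). ALPP, placental alkaline phosphatase, was at 4.42, 2.97 and 4.06 CPM against 3.34, 2.67 and 3.62 in unedited cells, which overlapped (0.24, adjusted p = 0.174), though it was called higher without nuclear-line replicate 2 (0.41, adjusted p = 0.0226). It averaged 3.29 CPM in the knockout alone, 6.24 under guanosine, and 2.16 and 0.766 in the other add-back lines (1.57 against these). KCNQ3, a potassium channel, was at 5.18, 5.42 and 4.91 CPM, near the 5.03 of the knockout alone and above averages of 2.79 and 1.53 in the other add-back lines (1.32), while unedited cells averaged 0.416.

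SERPINB2, lost from all knockout-derived cells, was lowest in the nuclear line, with averages of 0.444 and 0.503 CPM in the other add-back lines (log2 fold change -3.09 against them). The knockout under guanosine was nearly as low, at 0.191, 0.0939 and 0.129 CPM against 0.0932, 0.0328 and 0.0394 in the nuclear line. These values rest on few reads near the floor. SELENBP1, a selenium-binding protein, was at 0.82, 0.673 and 0.749 CPM in the nuclear line, below 6.6, 7.84 and 7.06 in unedited cells and below averages of 3.12 and 2.7 in the other add-back lines (-1.96, adjusted p = 1.78e-08). TMPRSS15, DCAF8L1 and ROBO2 were lower too, by 1.78, 2.75 and 1.46 on the log2 scale. IL13RA2, the decoy receptor for interleukin-13, was at 1.29, 1.13 and 1.48 CPM, close to unedited cells at 0.958, 1.12 and 1.12 (0.28, adjusted p = 0.0951). It was called higher than in unedited cells with library totals (0.36, adjusted p = 0.0289) and without nuclear-line replicate 2 (0.39, adjusted p = 0.0322), and its difference from the add-back lines (-3.07) came with averages of 30.4 CPM in the IMPDH2 add-back line and 3.88 in the Cyt-IMPDH2 line.

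**Figure D5:**
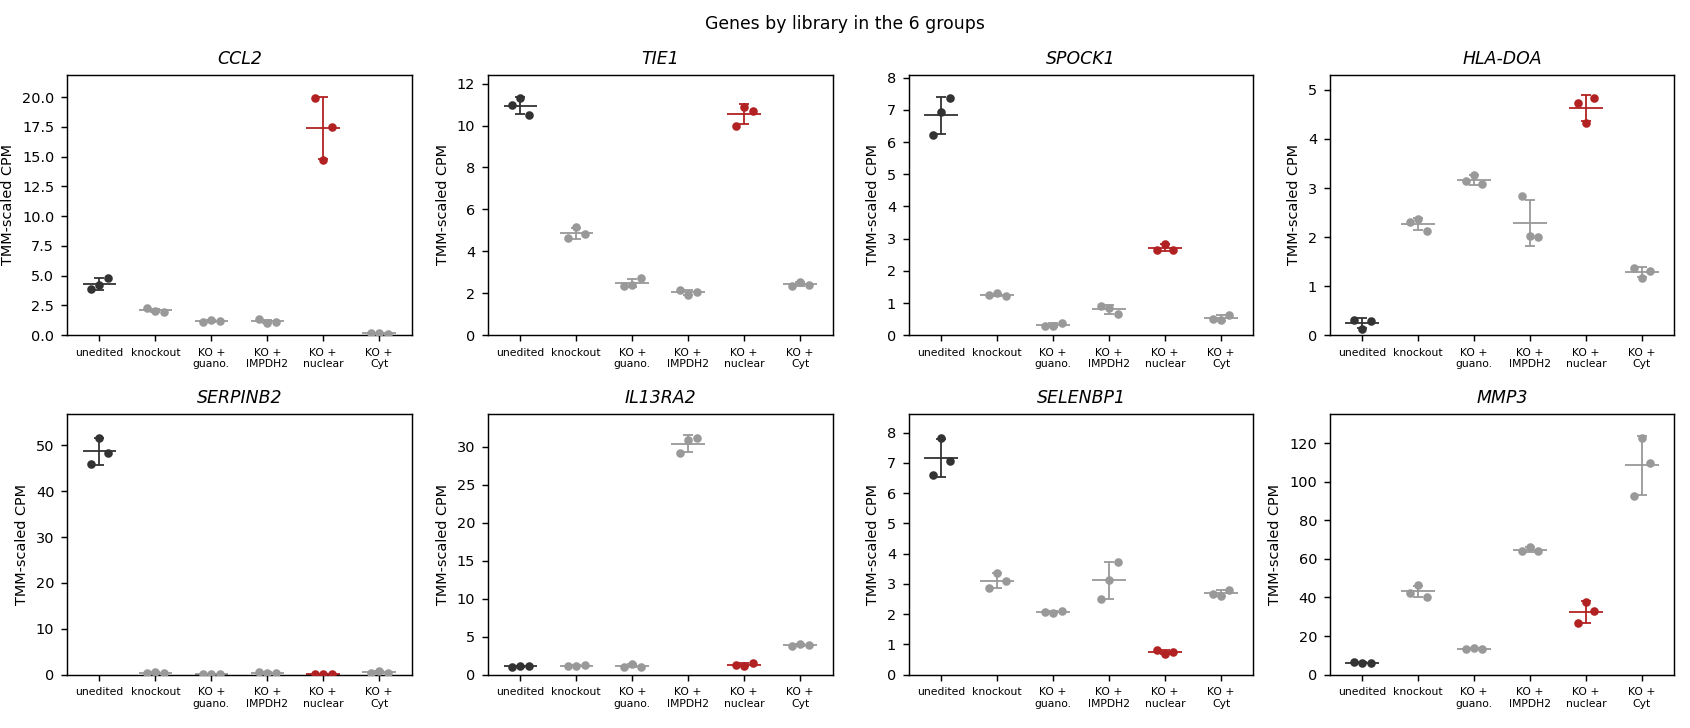
TMM-scaled CPM by library (points), group mean (line) and SD (bar, n = 3) of CCL2, TIE1, SPOCK1, HLA-DOA, SERPINB2, IL13RA2, SELENBP1 and MMP3 in the 6 groups, with the nuclear line in red. CCL2 and HLA-DOA are highest in the nuclear line, TIE1 lies at the unedited level, and IL13RA2 is highest in the IMPDH2 add-back line.

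Against the knockout alone 10213 genes (53.0%) were called in the nuclear line, 5033 higher (26.1%) and 5180 lower (26.9%), while 1156 (6.0%) differed at least 2-fold, 287 higher (1.49%) and 869 lower (4.51%). With library totals the split was 3653 higher and 6773 lower. Besides IMPDH2, its overlapping entry and CCL2, MALL, a membrane-raft protein, was at 7.34, 6.97 and 7.72 CPM in the nuclear line and 0.948 in the knockout alone (log2 fold change 2.95), with 8.49, 9.58 and 9.58 in unedited cells. NEGR1, a neural adhesion protein, was at 14.6, 13.4 and 12 CPM against 3.31 in the knockout alone (2.01) and 40.6, 41.2 and 44.7 in unedited cells (-1.66). EIF3CL, a near-identical copy of EIF3C, spread from 1.9 to 8.16 CPM over the nuclear-line libraries, and its call (2.31, adjusted p = 0.0181) was lost without knockout replicate 1 (adjusted p = 0.073), knockout replicate 2 (0.0539) or nuclear-line replicate 3 (0.0955). IL2RG, the common cytokine receptor chain, was at 1.83, 2.03 and 2.25 CPM against 16.4 in the knockout alone (-3.01) and 0.864, 1.34 and 1.18 in unedited cells (0.86). EPHB1, an ephrin receptor, was at 1.62, 1.62 and 1.81 CPM against 9.76 (-2.53) and 0.752, 0.699 and 0.7 (1.23).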

How the data were processed

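Messenger RNA was sequenced from 18 libraries of MDA-MB-231 cells in 6 groups of 3. PureLink extraction and TruSeq stranded mRNA libraries were used, per the labels. Trim Galore 0.6.10, Salmon 1.10.0 and the genome hg19 are named in the submitters' processing notes. The deposited files hold estimated counts, TPM and effective lengths of 252048 transcripts per the file headers; the authors' TPM values were used as deposited for IMPDH2 transcripts. Labels of cell line, and of genotype within the nuclear line, count upward over successive samples, whereas titles name 1 group, so titles were followed.

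Estimated counts, of which 32.5% were not whole numbers, were summed to 62749 genes and rounded. The filter filterByExpr left 19252 genes holding 99.96% of reads. All 18 libraries entered 1 edgeR 4.0.16 fit (R 4.3.3) with TMM factors, group means as coefficients and the quasi-likelihood test, with Benjamini-Hochberg adjustment within each of 3 comparisons and a threshold of 0.05; the common biological coefficient of variation was 4.87%. The script was tested on simulated counts. CPM was computed with TMM-scaled library sizes. A floor of 3 counts over a group bounds folds against 0, and 95% intervals are exact (Clopper-Pearson) and cover counting error only. Positions are from GENCODE 29 (GRCh38), which holds 57804 of the genes, and promoter sequences from RefSeq (GRCh38.p14). Gene lists are described by counts and medians without a test.

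Replicate libraries differed by more than sampling noise, so none was a copy of another. The comparisons, the 36 lists and the named genes were chosen with earlier results of these data known. The rule for named genes took IMPDH2, IMPDH1 and PARP1, the 12 coding genes with the largest rises and the 12 with the largest falls against unedited cells among called genes whose average log2 CPM reached 1 and whose libraries did not overlap, 6 and 6 in each other comparison, and up to 4 members of each list with the smallest adjusted p in its majority direction; other members are named as minorities or examples after their values were seen. Alternatives were DESeq2 1.42.0 size factors and Wald test, library totals, no filter, a replicate block, the compared groups alone, a transcript-length offset, coding genes alone and leaving out each library. Subtraction of window medians was added after the data were seen.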

Additional observations from a re-analysis of the deposited data

How the results depend on the processing

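No named gene's called log2 fold change changed sign under the alternatives run. Library totals turned the split against unedited cells from 6063 higher and 6460 lower to 7279 and 5515. With window medians subtracted, 10 of 35 list medians moved by at least 0.1, and those of nucleic acid sensors (-0.03 to 0.29), NAD (-0.1 to 0.01), PARP (-0.04 to 0.01), purine salvage (0.02 to -0.03), pyrimidine synthesis (0.01 to -0.01) and damage-induced arrest and apoptosis (-0.01 to 0.01) changed sign. Of counts of called list members 980 of 1008 and of counts of called genes 171 of 180 stayed within 1.5 times their value, and of the named genes' values under alternatives 2981 of 3013 kept direction and side of the threshold, 29 lost the call and 3 gained it. Against unedited cells the count of genes at least 2-fold higher was 821 with coding genes alone. Against the knockout alone the count at least 2-fold lower was 436 with coding genes alone. Against the mean of the other add-back lines the length offset gave 490 higher and 429 lower, the fit without a filter 176 higher and 165 lower by at least 2-fold, and coding genes alone 48 lower by at least 2-fold; the cause was not tested.

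Leaving out 1 library at a time gave 5693 to 5974 higher and 5949 to 6181 lower genes against unedited cells (1317 to 1373 and 1478 to 1540 by at least 2-fold), 4598 to 4972 and 4588 to 4838 against the knockout alone (247 to 296 and 795 to 849), and 1063 to 1619 and 949 to 1429 against the other add-back lines (53 to 80 and 68 to 84). A replicate block gave 5996 higher and 6424 lower against unedited cells, 4966 and 5103 against the knockout alone, and 1607 and 1304 against the other add-back lines. Same-numbered libraries of the nuclear line and unedited cells had deviations correlated at 0.02, 0.02 and 0.06, so the numbers were not taken as pairing the samples. Depth limits genes with few reads, whose folds are bounds or wide ratios.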
